A study of Mus musculus with 9 samples.

Results

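The hair keratins and keratin-associated proteins (KAPs) are the structural proteins of the hair shaft and of the sheaths around it, and 63 of their genes were followed here among 19938 genes measured in mouse ear skin. The members are 19 keratin genes, taken as Krt25 to Krt28, Krt31 to Krt36, Krt71 to Krt75 and Krt81 to Krt86, and 44 genes whose symbol starts with Krtap. Each had to be the 1 symbol that the platform annotation gives its probe set, and each of the 63 has 1 such probe set. Krt81, Krt83 and Krt85 were not analysed here. The rule that picks the genes goes by symbol alone, and it was set with earlier results of these data known.

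The arrays hold whole ear skin of female C57BL/6 mice, 7 to 9 weeks old, in 3 groups of 3. In the anisomycin group, 10 µl of a solution of 2 mg/ml in ethanol went on each side of the ear every day, and in the imiquimod group 10 mg of a 5% cream was spread on both sides daily, in each case for 5 days. The vehicle group is labelled only as vehicle, and the labels do not say whether it received ethanol or cream base, or for how long. Anisomycin is an antibiotic that blocks protein synthesis and activates stress kinases, and imiquimod is a Toll-like receptor 7 agonist whose cream is used to raise a psoriasis-like dermatitis in mice. Values are log2 expression values from the deposited table, each 3 values of a group are given in the order of replicates 1, 2 and 3, and a fold change is a difference of group means on that scale with limma's standard error. A gene is called changed at an adjusted p under 0.05 over all 19938 genes.

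A hair follicle is built as concentric layers. The inner root sheath, made with keratins of type I (Krt25 to Krt28) and type II (Krt71 to Krt74), moulds the growing shaft, the companion layer with Krt75 lies between inner and outer root sheath, and the shaft itself is made of hair keratins cross-linked by KAPs. Most of these genes are transcribed while a follicle is growing, in anagen, and are low in the resting phase, so their level in skin depends on how many follicles are in which phase. In whole skin, fewer follicle cells and less RNA per cell cannot be told apart.

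Single arrays stood apart within their groups for these genes. The third imiquimod array was the highest of its group in 55 of 63 members, or 87.3%, against 33.7% of all genes, and the third vehicle array was the highest of its group in 49 of 63, or 77.8%, against 30.8% of all genes. Array medians over all genes lay between 6.46 and 6.50 in the treated groups and between 6.52 and 6.53 in the vehicle group. Without the third imiquimod array, 17 further members were called lower with imiquimod and 0 were lost. Without the third vehicle array, 12 falls and 1 rise were lost with anisomycin, and 13 falls were lost and 1 rise gained with imiquimod. These changes are given beside the members described here.

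Many of the members were dim. As a stand-in for a level without expression, the 95th percentile of the mean levels of 1027 olfactory receptor genes was 5.39, and 34 of 63 members had a mean over the 9 arrays above it. Probe sets differ in their response, so this is a description and not a detection test. Just above it were Krt72 and Krtap24-1, and just below it Krtap3-2 and Krtap5-5. Many KAP genes are close copies of each other, so the value of a single KAP may hold signal from its neighbours. Folds of members near this level may understate the change.

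The members also share a promoter feature that their names did not select. RefSeq start sites (GRCm38.p6) were given for 55 of the 63. The letters TATAA on the transcript strand, lying wholly between positions -60 and -10 from the transcript start, were found in 45 of those 55 promoters, or 81.8%, against 1699 of 32851 promoters in the RefSeq table, or 5.17%. The share was 34 of 40 in KAP genes and 11 of 15 in keratin genes, and the median position of their first letter was -31. The second sequence searched, CTTTGA, on either strand of the window from 250 bases before to 50 after the start, was present in 19 of 55 members and in 5257 of the 32851. Both sequences were chosen after the data were seen, and a match is a description only. Since many KAP genes are close copies of each other, the 55 promoters may not be separate cases. The 32851 promoters belong to 27025 genes, so some genes count more than once there, while each of the 55 members counts once. The 150 bases before the start are shown, 5′ to 3′ on the transcript strand, for strongly lowered members of 5 roles and for Krt75, the member that rose most. Capitals mark TATAA.
Krt25 (chr11:99322952-99323101, minus strand): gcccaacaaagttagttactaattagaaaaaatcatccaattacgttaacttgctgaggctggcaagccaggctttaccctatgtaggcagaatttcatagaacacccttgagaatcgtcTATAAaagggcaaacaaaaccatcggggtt
Krt71 (chr15:101743098-101743247, minus strand): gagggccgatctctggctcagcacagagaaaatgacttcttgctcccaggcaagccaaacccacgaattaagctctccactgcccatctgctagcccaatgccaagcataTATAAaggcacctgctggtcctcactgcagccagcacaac
Krt75 (chr15:101573905-101574054, minus strand): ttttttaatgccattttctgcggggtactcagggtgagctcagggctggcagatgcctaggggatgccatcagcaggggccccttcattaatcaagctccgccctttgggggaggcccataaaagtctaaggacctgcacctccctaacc
Krtap3-3 (chr11:99550864-99551013, minus strand): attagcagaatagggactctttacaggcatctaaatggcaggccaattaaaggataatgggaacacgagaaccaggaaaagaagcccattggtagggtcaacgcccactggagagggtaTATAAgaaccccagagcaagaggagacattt
Krtap5-2 (chr7:142176006-142176155, minus strand): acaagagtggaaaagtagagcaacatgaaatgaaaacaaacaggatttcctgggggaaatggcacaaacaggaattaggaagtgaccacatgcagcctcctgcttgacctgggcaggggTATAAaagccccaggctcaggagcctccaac
Krtap8-1 (chr16:89487953-89488102, minus strand): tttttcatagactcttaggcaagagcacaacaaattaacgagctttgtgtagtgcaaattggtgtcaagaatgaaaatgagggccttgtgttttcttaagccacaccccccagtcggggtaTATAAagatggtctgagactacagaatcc
The 5 lowered genes carry the letters at positions -40 to -29, and Krt75 does not have this exact string in the searched window. Near matches, such as the letters ATAAAA in the Krt75 sequence shown, were not counted. Across the members, TATAA was present in 32 of 37 promoters of genes that fell with anisomycin, in 12 of 15 of genes not called and in 1 of 3 of genes that rose.

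With anisomycin, 42 of the 63 members fell, 4 rose and 17 were not called, by limma's moderated test. The background is high: 45.6% of all genes were called in this comparison, 23.3% lower and 22.3% higher. The median log2 fold change of the members was -0.57, against -0.0097 over all genes. In 45 members all 3 anisomycin arrays lay below all 3 vehicle arrays, which was so for 26.4% of all genes, and in 4 all 3 lay above, which was so for 24.9%. By family, 33 of 44 KAPs fell and 0 rose, and 9 of 19 keratins fell and 4 rose. In 16 members the fall was called and at least 2-fold, which was so for 3.45% of all genes. Without the third vehicle array, 30 members fell, and 22.2% of all genes were lower.

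With imiquimod, 24 of 63 members fell, 2 rose and 37 were not called, in a comparison where 42.7% of all genes were called, 22.4% lower and 20.4% higher. The median of the members was -0.43, against -0.026 over all genes. Of the 44 KAPs 20 fell and 0 rose, and of the 19 keratins 4 fell and 2 rose. The groups were apart in 15 members that were lower with imiquimod, against 27.4% of all genes, and in 3 that were higher, against 24.4%. These counts depended on single arrays: 41 members fell without the third imiquimod array, against 10 without the first, 8 without the second and 11 without the third vehicle array. Of all genes, 19.2%, 18.5%, 18.4% and 20.7% were lower with imiquimod in these fits, in the same order. The counts of 10, 8 and 11 of 63 are below those shares.

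**Figure D1:**
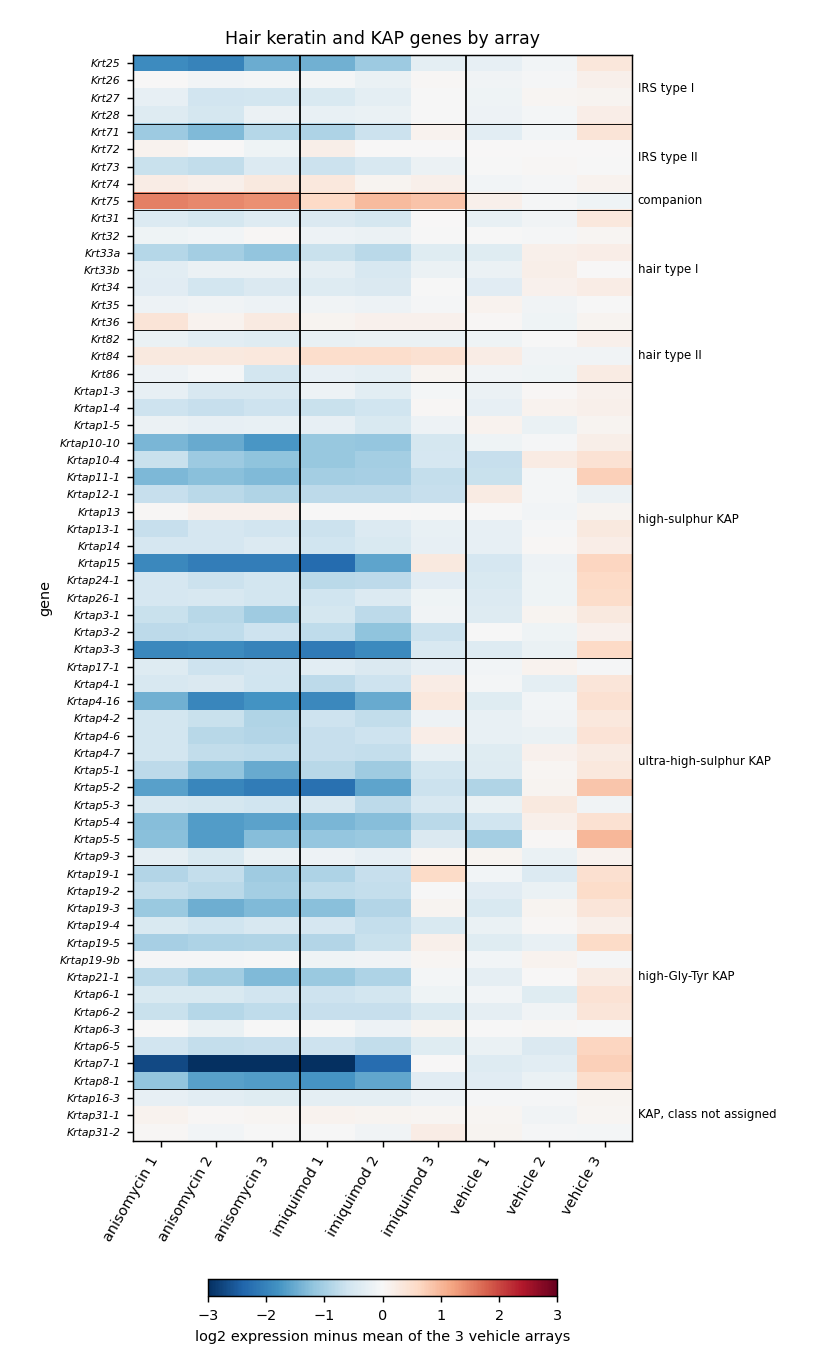
Log2 expression of each of the 63 members minus its mean over the 3 vehicle arrays, by array (columns) and gene (rows, grouped by role), with the colour scale ending at -3 and 3. The anisomycin arrays and the first 2 imiquimod arrays are blue over most KAPs, the third imiquimod array is close to vehicle, and Krt75 is red in all 6 treated arrays.

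Among the type I keratins of the inner root sheath, Krt25 fell most. Krt25 measured 5.14, 5.01 and 5.52 with anisomycin, 5.57, 5.94 and 6.73 with imiquimod, and 6.78, 6.93 and 7.35 with vehicle. All treated arrays lay below all vehicle arrays, and the third imiquimod array came closest to them. The change was -1.80 (SE 0.28, adjusted p = 0.000497) with anisomycin and -0.94 (SE 0.28, adjusted p = 0.021) with imiquimod, and the second call was lost without the third vehicle array (adjusted p = 0.0814) and without either of the first 2 imiquimod arrays. Without the third imiquimod array it was -1.26 (adjusted p = 0.00167). Krt27 had 5.61, 5.30 and 5.31 with anisomycin, 5.41, 5.58 and 5.85 with imiquimod, and 5.73, 5.92 and 5.94 with vehicle. Its anisomycin values were all below vehicle, with a change of -0.46 (SE 0.12, adjusted p = 0.0134, lost without the second anisomycin array at 0.0555), while its imiquimod values overlapped vehicle (-0.25, adjusted p = 0.139, but -0.37 and 0.0357 without the third imiquimod array). Krt28 was called lower with anisomycin (-0.36, adjusted p = 0.026), a call lost without the third vehicle array (-0.26, adjusted p = 0.0898), and Krt26 was not called with either treatment.

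Of the type II partners, Krt71 and Krt73 fell with anisomycin. Krt71, whose mutations give curly or sparse coats in several mammals, measured 6.11, 5.88 and 6.36 with anisomycin, 6.28, 6.55 and 7.31 with imiquimod, and 6.90, 7.13 and 7.59 with vehicle. The anisomycin arrays lay below vehicle (-1.09, SE 0.26, adjusted p = 0.00725), and the first and second imiquimod arrays did so too while the third lay inside the vehicle range (-0.49, SE 0.26, adjusted p = 0.173). Without that array Krt71 was called lower with imiquimod (-0.79, adjusted p = 0.0179), and it was also called with the replicate block. Krt73 had 5.57, 5.50 and 5.83 with anisomycin, 5.60, 5.77 and 6.06 with imiquimod, and 6.22, 6.27 and 6.23 with vehicle. Neither treatment overlapped vehicle, and the changes were -0.61 (adjusted p = 0.00213) and -0.43 (adjusted p = 0.0154, up to 0.0578 when the first or second imiquimod array was left out). Krt74, whose level was below that of the olfactory receptor percentile, had the opposite direction, with 4.23, 4.14 and 4.28 with anisomycin, 4.32, 4.07 and 4.16 with imiquimod, and 3.93, 3.97 and 4.10 with vehicle. Its rise of 0.22 with anisomycin (SE 0.08, adjusted p = 0.0428) was lost under 6 of 17 alternatives, among them leaving out the first or the third anisomycin array, the third imiquimod array or the first or second vehicle array. Its imiquimod change of 0.18 (adjusted p = 0.0842) was called without the third vehicle array (adjusted p = 0.0491). Krt72 was not called with either treatment, and its 3 vehicle arrays held exactly the same value, 5.40. Why values of single members coincided between arrays was not tested.

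Krt75, the companion layer keratin, had the largest rise of the members. Its values were 8.65, 8.59 and 8.51 with anisomycin, 7.73, 8.10 and 8.01 with imiquimod, and 7.30, 7.11 and 7.02 with vehicle. The 3 groups did not overlap, with anisomycin highest and vehicle lowest. Krt75 rose by 1.44 with anisomycin (2.72-fold, SE 0.10, adjusted p = 4.74e-06) and by 0.80 with imiquimod (1.75-fold, SE 0.10, adjusted p = 0.000205), and it was 0.64 higher with anisomycin than with imiquimod (SE 0.10, adjusted p = 0.00319). These calls held in all 19 alternatives tried. For Krt75 the third imiquimod array was not the highest of its group, and the third vehicle array was the lowest.

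Of the 10 genes classed as hair keratins of type I or type II, 4 fell and 2 rose with anisomycin. The 2 that rose, Krt36 and Krt84, had mean levels below the olfactory receptor percentile, as did Krt31 among the 4 that fell. Krt33a, a type I hair keratin, had 5.74, 5.56 and 5.40 with anisomycin, 5.92, 5.79 and 6.22 with imiquimod, and 6.22, 6.75 and 6.80 with vehicle. Anisomycin values lay below all others, while the third imiquimod and the first vehicle array met at the edge of their groups. The changes were -1.02 (SE 0.17, adjusted p = 0.000771) and -0.61 (SE 0.17, adjusted p = 0.0152), and the imiquimod call was lost without either of the first 2 imiquimod arrays or either of the last 2 vehicle arrays, at an adjusted p of up to 0.0632. Its close relative Krt33b had 7.12, 7.24 and 7.24 with anisomycin, 7.15, 6.94 and 7.24 with imiquimod, and 7.24, 7.59 and 7.44 with vehicle. The groups touched at 7.24, a value that arrays of all 3 groups shared exactly. Krt33b was called lower with imiquimod (-0.31, adjusted p = 0.0334) but not with anisomycin (-0.22, adjusted p = 0.103). The imiquimod call was lost in 8 of 19 alternatives, among them leaving out the second anisomycin array, the first or second imiquimod array or the second or the third vehicle array, and the difference between the treatments was 0.09 (adjusted p = 0.632).

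Krt31, a hair keratin of the cortex, had 5.00, 4.89 and 5.03 with anisomycin, 4.98, 4.89 and 5.43 with imiquimod, and 5.19, 5.32 and 5.73 with vehicle. The anisomycin arrays were below vehicle, and the third imiquimod array was inside the vehicle range. Krt31 sat at the threshold, with a change of -0.44 with anisomycin (SE 0.16, adjusted p = 0.0496) that was lost in 9 of 17 alternatives. Among these were leaving out any anisomycin array, the first or second imiquimod array and the second or the third vehicle array, at an adjusted p of up to 0.164. With imiquimod Krt31 was called lower when the third imiquimod array was left out (-0.48, adjusted p = 0.0289) and with the replicate block. Krt34 was called lower with anisomycin (-0.45, adjusted p = 0.0436), although its highest anisomycin value equalled its lowest vehicle value, and the call was lost without the third vehicle array (-0.34, adjusted p = 0.149). Krt35, an early keratin of the hair matrix and cuticle, had 5.58, 5.63 and 5.57 with anisomycin, 5.62, 5.58 and 5.70 with imiquimod, and 5.83, 5.63 and 5.72 with vehicle, and was not called with either treatment (-0.13 and -0.09). The imiquimod and vehicle ranges of Krt35 overlapped, and the highest anisomycin value equalled the lowest vehicle value. Krt36 had 5.19, 4.90 and 5.06 with anisomycin, 4.88, 4.92 and 4.92 with imiquimod, and 4.82, 4.67 and 4.89 with vehicle. The anisomycin arrays were above vehicle, and the imiquimod arrays overlapped both groups. That rise of 0.25 (adjusted p = 0.0291) was lost in 6 of 17 alternatives, among them leaving out the first or the third anisomycin array or the first or second vehicle array. Krt32 was not called.

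Of the type II hair keratins, 1 fell and 1 rose with anisomycin. Krt82, a keratin of the hair cuticle, had 6.04, 5.90 and 5.85 with anisomycin, 6.00, 6.03 and 6.04 with imiquimod, and 6.10, 6.21 and 6.37 with vehicle. Both treatments lay below vehicle, with changes of -0.30 (adjusted p = 0.0105) and -0.20 (adjusted p = 0.0601, not called). Krt84, classed here with the type II hair keratins and made in the filiform papillae of the tongue, measured 5.21, 5.21 and 5.23 with anisomycin, 5.45, 5.45 and 5.37 with imiquimod, and 5.14, 4.80 and 4.81 with vehicle. Every treated array was above every vehicle array, and the rises were 0.30 (adjusted p = 0.0196, lost without the second anisomycin array, without the second or the third vehicle array and in the fit of the groups compared) and 0.50 (adjusted p = 0.00124). Krt86, another keratin of the cortex, had 4.20, 4.31 and 3.82 with anisomycin, 4.11, 4.06 and 4.43 with imiquimod, and 4.24, 4.22 and 4.61 with vehicle. Its groups overlapped, and it was not called with either treatment (-0.25 and -0.16).

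**Figure D2:**
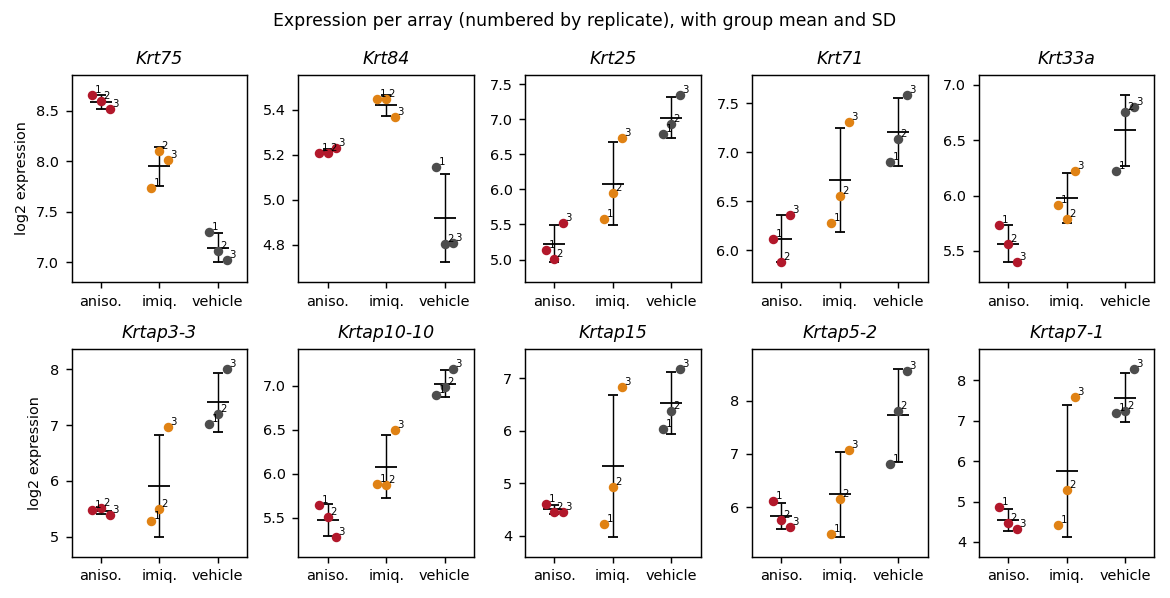
Log2 expression of 10 members in each array (points, numbered by replicate), with group mean and SD (bars, n = 3 arrays), anisomycin left, imiquimod middle and vehicle right; each panel has its own axis, which does not start at 0. Krt75 and Krt84 are higher in both treatments, and in Krt25, Krt71, Krtap3-3, Krtap15, Krtap5-2 and Krtap7-1 the third imiquimod array is the highest of its group.

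The high-sulphur KAPs, cysteine-rich proteins that form disulphide bonds with the hair keratins, fell in 12 of 16 cases with anisomycin (median -0.68) and in 9 of 16 with imiquimod (median -0.56), and 0 rose. The imiquimod count was 13 of 16 without the third imiquimod array and 4 of 16 without the third vehicle array. The anisomycin count without the third vehicle array was 9 of 16. The shares of all genes that were lower in these fits were 19.2%, 20.7% and 22.2%, in the same order. Krtap3-3 had 5.48, 5.52 and 5.40 with anisomycin, 5.28, 5.50 and 6.96 with imiquimod, and 7.02, 7.20 and 8.004 with vehicle. All treated values were below vehicle, and the third imiquimod array came just below the first vehicle array. The changes were -1.94 (SE 0.40, adjusted p = 0.00315) and -1.49 (SE 0.40, adjusted p = 0.0141), and without the third imiquimod array the second was -2.02 (adjusted p = 0.000445). The imiquimod call was lost without the third vehicle array (adjusted p = 0.0575) and without either of the first 2 imiquimod arrays, at up to 0.0587. Krtap10-10 had the only difference between the treatments in which anisomycin was called lower. It measured 5.65, 5.50 and 5.29 with anisomycin, 5.88, 5.87 and 6.49 with imiquimod, and 6.89, 6.99 and 7.19 with vehicle, in 3 groups that did not overlap. The changes were -1.54 (SE 0.17, adjusted p = 5.85e-05) with anisomycin and -0.94 (SE 0.17, adjusted p = 0.00149) with imiquimod, and the difference of -0.60 (adjusted p = 0.034) was not called without the third imiquimod array (-0.39, adjusted p = 0.0667), without the second or the third anisomycin array, or in the fit of the groups compared.

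Krtap15 depended on single arrays. It had 4.60, 4.45 and 4.46 with anisomycin, 4.23, 4.94 and 6.83 with imiquimod, and 6.04, 6.37 and 7.18 with vehicle. The anisomycin arrays were below vehicle (-2.02, SE 0.56, adjusted p = 0.015, lost without the third vehicle array at 0.0613), while the third imiquimod array lay inside the vehicle range and the imiquimod change of -1.20 (SE 0.56) was not called (adjusted p = 0.122). Without that array it was -1.95 (adjusted p = 0.00175). Krtap11-1, the single member of its KAP family, had 5.26, 5.33 and 5.28 with anisomycin, 5.57, 5.61 and 5.88 with imiquimod, and 5.93, 6.54 and 7.32 with vehicle. Every treated array was below every vehicle array, and it fell by 1.31 (adjusted p = 0.00351) and by 0.91 (adjusted p = 0.0244, lost without the first or second imiquimod or the second vehicle array and in the fit of the groups compared). Krtap3-1 had 7.41, 7.25 and 7.03 with anisomycin, 7.56, 7.29 and 7.97 with imiquimod, and 7.70, 8.17 and 8.38 with vehicle. It fell with anisomycin (-0.86, adjusted p = 0.00677) and was not called with imiquimod (-0.48, adjusted p = 0.0927), but was called without the third imiquimod array (-0.66, adjusted p = 0.0301) and without the first vehicle array (-0.67, adjusted p = 0.0237). Krtap13, Krtap24-1 and Krtap26-1 were called with neither treatment, though Krtap24-1 was called lower with imiquimod without the third imiquimod array (-0.80, adjusted p = 0.0391).

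The ultra-high-sulphur KAPs, which are richest in cysteine and are made mainly in the hair cuticle and cortex, fell in 11 of 12 cases with anisomycin (median -0.73) and in 7 of 12 with imiquimod (median -0.56), and 0 rose. The imiquimod count was 10 of 12 without the third imiquimod array and 3 of 12 without the third vehicle array, and the anisomycin count without the third vehicle array was 7 of 12. Of all genes, 19.2%, 20.7% and 22.2% were lower in these fits, in the same order. Krtap5-2 had 6.11, 5.76 and 5.63 with anisomycin, 5.49, 6.15 and 7.08 with imiquimod, and 6.81, 7.80 and 8.56 with vehicle. The anisomycin arrays were below vehicle, and the third imiquimod array lay inside the wide vehicle range. The changes were -1.89 (SE 0.46, adjusted p = 0.00775) and -1.48 (SE 0.46, adjusted p = 0.0276), the second lost in 6 of 19 alternatives, among them leaving out the first or second imiquimod array or the second or the third vehicle array. Without the third imiquimod array it was -1.90 (adjusted p = 0.00993). Krtap5-4 had 5.28, 4.89 and 4.95 with anisomycin, 5.18, 5.29 and 5.75 with imiquimod, and 5.95, 6.72 and 7.02 with vehicle, with no overlap of either treatment and changes of -1.52 (adjusted p = 0.00086) and -1.16 (adjusted p = 0.00494). Krtap5-5, of the same family, had 4.80, 4.37 and 4.78 with anisomycin, 4.89, 4.93 and 5.62 with imiquimod, and 5.02, 6.08 and 7.04 with vehicle. Its vehicle SD of 1.01 was the largest of the members, and its imiquimod arrays overlapped vehicle. It fell with anisomycin (-1.40, adjusted p = 0.0236, lost without the second anisomycin, the second vehicle or the third vehicle array and in the fit of the groups compared) and was not called with imiquimod (-0.90, adjusted p = 0.126).

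Krtap5-1 had 8.09, 7.69 and 7.37 with anisomycin, 8.03, 7.81 and 8.33 with imiquimod, and 8.50, 8.94 and 9.18 with vehicle. All treated arrays were below vehicle (-1.16, adjusted p = 0.00186, and -0.82, adjusted p = 0.0137, the second lost without the second imiquimod or the third vehicle array), and among the members Krtap5-1 had the largest SD of the anisomycin group, 0.36. Krtap5-3 had 8.24, 8.18 and 8.12 with anisomycin, 8.24, 7.91 and 8.23 with imiquimod, and 8.52, 9.01 and 8.60 with vehicle, and here the third imiquimod array did not stand out. It fell by 0.53 (adjusted p = 0.00835) and by 0.58 (adjusted p = 0.00566). Krtap17-1, from a gene next to the type I hair keratin cluster, had 8.85, 8.63 and 8.68 with anisomycin, 8.92, 8.80 and 8.99 with imiquimod, and 9.17, 9.34 and 9.22 with vehicle, without overlap, and fell by 0.52 (adjusted p = 0.000447) and by 0.34 (adjusted p = 0.00644). Krtap4-16 had 4.30, 3.78 and 3.95 with anisomycin, 3.81, 4.23 and 6.05 with imiquimod, and 5.36, 5.65 and 6.19 with vehicle. The third imiquimod array was inside the vehicle range and the other imiquimod arrays were level with anisomycin. Krtap4-16 fell with anisomycin (-1.72, SE 0.49, adjusted p = 0.0175, lost without the second anisomycin or the third vehicle array, at up to 0.068) and was not called with imiquimod (-1.04, adjusted p = 0.126), which became -1.72 (adjusted p = 0.000999) without the third imiquimod array. Krtap4-1 was called with neither treatment, but without that array it was called lower with both (-0.50, adjusted p = 0.0257, and -0.71, adjusted p = 0.0111).

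The high-glycine-tyrosine KAPs, small shaft proteins with much glycine and tyrosine, fell in 9 of 13 cases with anisomycin (median -0.85) and in 3 of 13 with imiquimod (median -0.56), and 0 rose. Of all genes, 23.3% were lower with anisomycin and 22.4% with imiquimod, so the imiquimod count is near the share of all genes. The imiquimod count was 10 of 13 without the third imiquimod array, and 0 of 13 were called different between the treatments with or without it. Without the third vehicle array, 7 of 13 fell with anisomycin and 2 of 13 with imiquimod, against 22.2% and 20.7% of all genes. Without the third imiquimod array, 19.2% of all genes were lower with imiquimod. Krtap7-1 had the largest fall of the members, with 4.86, 4.47 and 4.33 with anisomycin, 4.43, 5.28 and 7.58 with imiquimod, and 7.19, 7.24 and 8.28 with vehicle. The anisomycin arrays were far below vehicle, the first 2 imiquimod arrays were close to anisomycin, and the third imiquimod array was inside the vehicle range. It was 8.09-fold lower with anisomycin (-3.02, SE 0.67, adjusted p = 0.00472), and the imiquimod change of -1.81 (SE 0.67) was not called (adjusted p = 0.0563). That change was called in 5 of 19 alternatives. These were leaving out the third imiquimod array (-2.72, adjusted p = 0.000655), a changed variance prior, the replicate block and both filters on dim genes. Krtap8-1 had 6.50, 6.08 and 6.02 with anisomycin, 5.94, 6.15 and 7.37 with imiquimod, and 7.35, 7.51 and 8.23 with vehicle. Only the third imiquimod array overlapped vehicle, and the changes were -1.50 (SE 0.36, adjusted p = 0.00722) and -1.21 (SE 0.36, adjusted p = 0.0224), the second lost without the first or second imiquimod or the third vehicle array and in the fit of the groups compared. Without the third imiquimod array it was -1.65 (adjusted p = 0.00127). Krtap19-4 and Krtap6-2 were the other 2 that fell with imiquimod, by 0.56 and 0.62, and they fell with anisomycin by 0.51 and 0.76. Of the 3 KAPs to which no class was given, Krtap16-3 fell with both treatments, and Krtap31-1 and Krtap31-2 were called with neither.

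**Figure D3:**
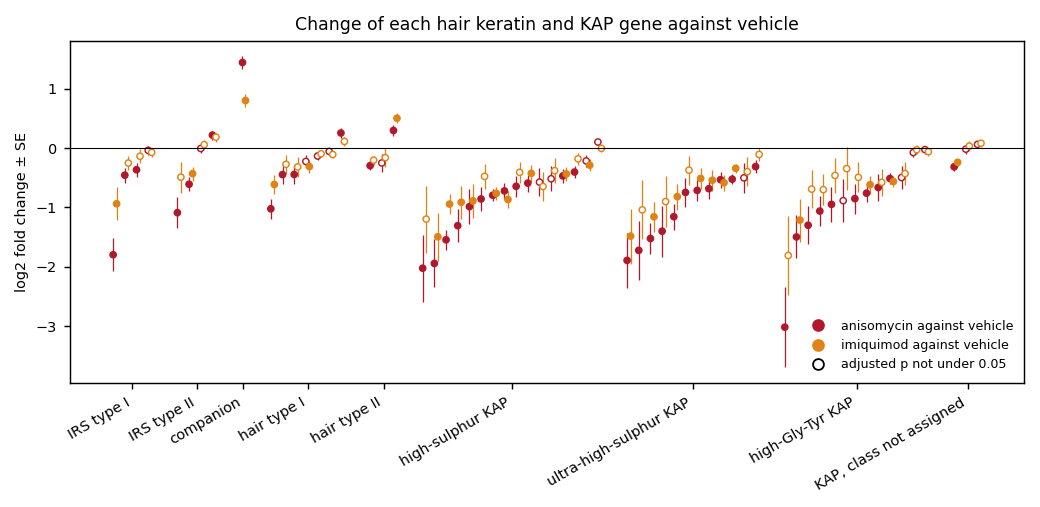
Log2 fold change of each member against vehicle with limma's SE (n = 3 arrays per group), grouped by role and ordered within a role by the anisomycin change; red is anisomycin, orange imiquimod, and open points have an adjusted p not under 0.05. KAP points lie below 0 for nearly all genes, and the companion layer keratin Krt75 is the highest point of both treatments.

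Set side by side, with the vehicle arrays shared, 22 members fell with both treatments, 20 were called lower with anisomycin alone, 2 with imiquimod alone, 2 rose with both, 2 were called higher with anisomycin alone and 15 were called with neither. The 2 lower with imiquimod alone were Krt33b and Krtap1-5, and both calls were lost without the third vehicle array (adjusted p = 0.0832 and 0.121). Being called in 1 comparison and not in the other does not show a difference, and the direct test of anisomycin against imiquimod called 2 of 63 members, Krt75 higher and Krtap10-10 lower, where 20.4% of all genes were called, 10.8% higher and 9.59% lower. By group means 50 of 63 members were lower with anisomycin than with imiquimod, at a median of -0.16 against 0.015 over all genes. Without the third imiquimod array that median was -0.026 and Krt75 was the only member called. Over the 3 groups, limma's F test called 36 of 63 members, against 51.3% of all genes, and 18 without the third vehicle array.

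The third imiquimod array differed from its partners across most members at once. As the median over the 63 members of the difference from the vehicle mean, the anisomycin arrays lay at -0.51, -0.62 and -0.57, the imiquimod arrays at -0.63, -0.62 and -0.069, and the vehicle arrays at -0.19, -0.044 and 0.22. The first 2 imiquimod arrays were level with anisomycin, and the third was between the second vehicle array and the first. In 50 members the first and second imiquimod arrays were both below all vehicle arrays, and in 35 of these the third was not. The matching shares of all genes were not analysed here, so the counts of 50 and 35 stand without a background. By family, the third imiquimod array was highest in 41 of 44 KAPs and 14 of 19 keratins, and in 13 of 13 high-glycine-tyrosine KAPs, where its median gap to the mean of the other 2 arrays was 0.73. Over all genes, 23 had such a gap above 1, and 8 of those were members. The third vehicle array also stood out, with 15 members among the 30 genes of largest gap to the other vehicle arrays, and in 49 members both arrays lay above the mean of their partners. The median SD of the members was 0.10 in the anisomycin, 0.22 in the imiquimod and 0.27 in the vehicle group, against 0.078, 0.059 and 0.098 over all genes. Krtap7-1 had the largest SD of the imiquimod group, 1.63.

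**Figure D4:**
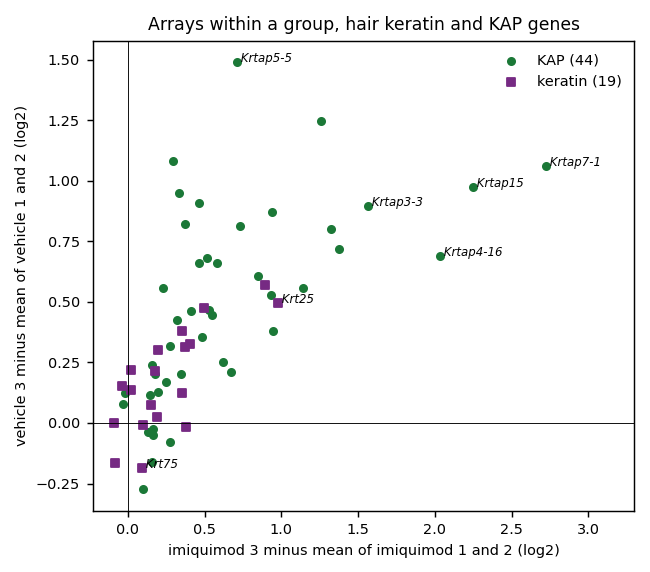
For each member, the third imiquimod array minus the mean of the other 2 imiquimod arrays (horizontal axis, log2) against the third vehicle array minus the mean of the other 2 vehicle arrays (vertical axis, log2), KAPs as circles and keratins as squares. Most points are above 0 on both axes, with Krtap7-1 farthest right at 2.72 and Krt75 slightly above 0 on the horizontal and below 0 on the vertical axis.

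Other genes of the follicle were split in direction. Of 38 follicle genes that are not keratins, 15 fell, 11 rose and 12 were not called with anisomycin (median -0.0072), and 12 fell, 12 rose and 14 were not called with imiquimod (median -0.034). The counts of this and the next lists stand against 23.3% of all genes lower and 22.3% higher with anisomycin, and 22.4% lower and 20.4% higher with imiquimod. Regulators of the follicle were among those that fell and those that rose. Hoxc13, a homeobox factor required for hair keratin expression, had 5.31, 5.04 and 5.51 with anisomycin, 5.39, 5.51 and 5.56 with imiquimod, and 5.84, 5.51 and 5.86 with vehicle, and fell with anisomycin (-0.45, adjusted p = 0.0171) but was not called with imiquimod (-0.25, adjusted p = 0.155). The factors Msx2 and Lef1, the growth factor Bmp4 and the hair cuticle protein gene S100a3 fell with both treatments, with changes of -0.37, -0.48, -1.17 and -0.66 with anisomycin and of -0.46, -0.48, -1.20 and -0.69 with imiquimod. Foxn1, which is needed for a normal hair shaft and is also expressed in the epidermis, rose by 0.45 and by 0.93. The transcription factors Prdm1, Ovol1 and Cux1 rose too, by 2.03, 1.27 and 0.37 with anisomycin and by 1.02, 1.14 and 0.28 with imiquimod, and Gata3, a factor of the inner root sheath, had changes of -1.35 and -0.61 and fell with both. Tchh, trichohyalin of the inner root sheath, was called with neither treatment. The largest changes of this list were those of genes that the epidermis also expresses. Dsc2, a desmosomal cadherin, rose by 4.14 with anisomycin and by 2.23 with imiquimod, Tgm3, a transglutaminase, by 2.97 and 2.49, and Psors1c2 by 2.00 and 2.71, while Mt4, a metallothionein of stratified epithelia, fell by 3.03 and by 1.88.

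Markers of follicle stem cells and the outer root sheath fell in 13 of 16 cases with anisomycin (median -0.64) and in 12 of 16 with imiquimod (median -0.51), and 2 rose with each. Krt15, a keratin of the bulge and of basal cells, had 8.40, 9.10 and 9.26 with anisomycin, 8.52, 8.99 and 9.01 with imiquimod, and 11.5, 11.3 and 11.3 with vehicle. It fell with both, with changes of -2.46 (SE 0.21) and -2.54 (SE 0.21). The median difference of this list from the vehicle mean was -0.57, -0.49 and -0.50 in the 3 imiquimod arrays, beside -0.69, -0.72 and -0.15 for the KAPs. Of 15 dermal papilla genes, 5 fell and 5 rose with anisomycin and 6 fell and 3 rose with imiquimod. Among those that fell were Wif1 (-2.02 and -1.93) and Corin (-1.91 and -1.69). Among those that rose were Vcan (1.52 and 1.43), Crabp1 (1.46 and 0.46) and Alpl (1.38 and 1.00). The largest change of this list was the rise of Inhba by 3.49 with anisomycin, which was not called with imiquimod (-0.085). Melanocyte genes fell in 5 and 7 of 15 cases and rose in 1 and 1, and sebaceous gland genes fell in 4 and 2 of 11 and rose in 1 and 3, and several of these shares are near those of all genes. All 12 stress keratin and hyperproliferation genes rose with both treatments, of 12 neutrophil genes 10 rose with each, and of 10 interfollicular genes 5 fell and 4 rose with anisomycin and 2 fell and 5 rose with imiquimod.

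Skeletal muscle genes, which mark the muscle of the ear, moved with the treatments and between arrays. All 12 fell with both treatments, with medians of -1.78 and -1.82, and their median per array was -1.89, -1.77 and -1.66 in the anisomycin group, -1.70, -1.61 and -2.19 in the imiquimod group and -0.13, 0.47 and -0.30 in the vehicle group. The third imiquimod array was the lowest of its group in 12 of 12 muscle genes and the third vehicle array in 11 of 12, while both were the highest for most members. Sebaceous gland genes had medians of -0.62, -0.18 and -0.077 in the anisomycin arrays, -0.14, -0.088 and 0.14 in the imiquimod arrays and 0.098, -0.17 and 0.030 in the vehicle arrays. The part of tissue composition in the members' values was not tested.

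**Figure D5:**
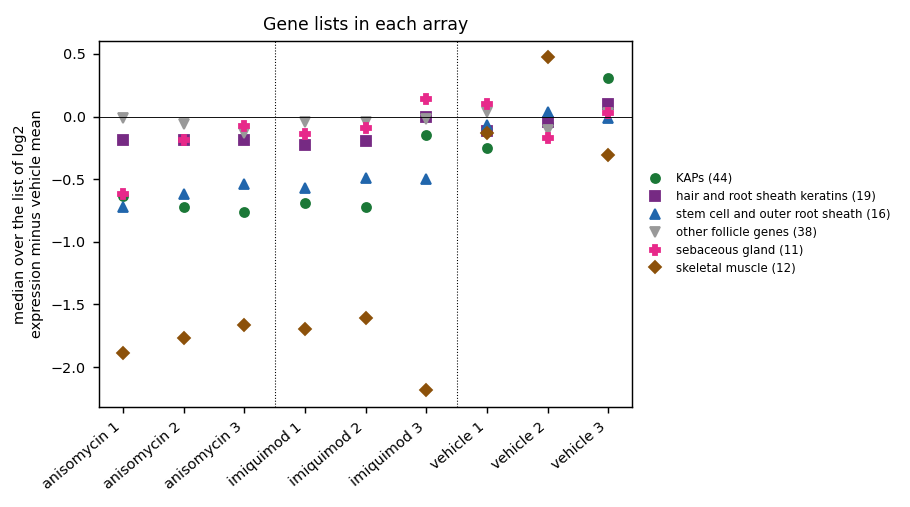
Median over each gene list of the log2 difference from the vehicle mean, for each array (points; the number of genes in each list is in the legend). KAPs are between -0.64 and -0.76 in the anisomycin arrays, at -0.69, -0.72 and -0.15 in the imiquimod arrays and at -0.25, -0.056 and 0.31 in the vehicle arrays, whereas the stem cell and outer root sheath list lies between -0.49 and -0.57 in all 3 imiquimod arrays.

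By chromosome, the members lie in a few clusters. With anisomycin, the 5 Krtap5 genes of chromosome 7 all fell (median -1.40), as did the 3 KAPs of chromosome 10 (median -0.99). Of the 26 members of chromosome 11, which holds the type I keratins and 15 KAPs, 17 fell and 1 rose, and of the 21 KAPs of chromosome 16, 14 fell and 0 rose. The 8 type II keratins of chromosome 15 were mixed, with 3 lower and 3 higher. The 3 higher were Krt74, Krt75 and Krt84. The counts by level are descriptions, since the level includes the vehicle arrays. Of the 34 members above the olfactory receptor level, 28 fell with anisomycin and 1 rose, against 14 lower and 3 higher of the 29 at or below it. With imiquimod the counts were 18 lower and 1 higher of 34, and 6 lower and 1 higher of 29. Of all genes above that level, 30.2% were lower with anisomycin and 28.2% with imiquimod, against 23.3% and 22.4% of all genes tested. Genes above the level were thus called lower more often in general, not only among the members. Of the 4 rises with anisomycin, that of Krt75 alone was above this level.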

How the data were processed

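Per the labels, RNA of whole ear skin was measured on 9 Affymetrix arrays of the type Mouse Gene 1.0 ST. The authors deposited 1 table, made with RMA per the submitters' processing notes. Whether RMA was run on the arrays jointly is not stated. Its range of 2.39 to 13.97 puts the deposited table on a log2 scale. Groups come from the treatment label. No label says that the 3 samples of a group were separate animals, so p-values may measure technical spread only. The smallest root mean square difference between 2 arrays was 0.182.

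Of 35556 rows, 21789 carry 1 gene symbol, 1621 several and 12146 none. Where a gene had several probe sets, as 999 genes did, the one with the highest mean was kept, which left 19938 genes. The linear models of limma 3.58.1 (R 4.3.3) had 1 mean per group over all 9 arrays (6 residual and 3.16 prior degrees of freedom), and p-values took the Benjamini-Hochberg adjustment over all genes. An exact test of 3 against 3 arrays could not go below p = 0.1. Precision is limited by the 3 arrays per group.

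KAP classes follow the family number, from general knowledge. Genes were named by a rule that took the brightest members of each role, the largest called changes, the largest SDs within a group and 14 symbols in every case, and other genes named were chosen after their values were seen. The members and lists were chosen with earlier results of these data known. All 63 members matched a RefSeq gene by Entrez identifier, with 0 changed symbols. The protein composition that had been planned was not analysed here. Alternatives were the variance prior, the filter on dim genes, 3 normalizations, averaging the probe sets of a gene, weighting arrays, blocking on the replicate number, fitting only the groups compared, and leaving out each array.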

Additional observations from a re-analysis of the deposited data

How the results depend on the processing

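The 42 falls and 46 calls with anisomycin were within 1.5 times of themselves under the scalings, with 37 lower when arrays were centred on their medians, 42 when centred on stable genes and 40 when quantile normalization was repeated, and the imiquimod falls, 24 in the main setting, were 18, 23 and 20. No scaling moved the median of all genes by more than 0.1. Fewer members were tested in the next 2 settings. Without the dimmest 30% of genes, which left 35 members, anisomycin had 30 calls with 1 rise, imiquimod had 1 rise, and 2 members were lower with anisomycin than with imiquimod. With genes above the olfactory receptor level only, a setting chosen after seeing the data that left 34 members, the corresponding numbers were 29, 1, 1 and 2. Of all genes tested in these 2 settings, 60.9% and 61.8% were called with anisomycin. Lower with anisomycin than with imiquimod were 14.3% and 14.6%. With array weights there were 2 rises with anisomycin and 15 calls between the treatments, 2 higher and 13 lower. Of all genes, 42.9% were called between the treatments with array weights and 20.2% were lower, which is near the share of the members. Centring on stable genes gave 2 lower, against 11.3% of all genes. Fitting only the groups compared gave 2 rises with anisomycin, 17 calls and 15 falls with imiquimod, and 2 members lower with anisomycin than with imiquimod. The shares of all genes in that fit were not analysed here, so its counts stand without a background. The cause was not tested for any of these.

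Leaving out 1 array at a time gave 33 to 47 calls with anisomycin, of which 1 to 4 higher and 30 to 44 lower, 11 to 43 calls with imiquimod, of which 8 to 41 lower, 1 to 3 calls between the treatments, of which 0 to 2 lower, and 18 to 42 calls over the 3 groups. Of all genes, 39.7% to 43.8% were called with anisomycin in these fits, and 19.8% to 22.3% were lower. With imiquimod 36.4% to 43.2% were called and 18.4% to 22.5% were lower, and between the treatments 12.7% to 23.9% were called. The replicate number was not shown to pair the arrays, since the deviations of same-numbered arrays correlated at -0.201 to 0.196. With the replicate block, 46 members fell and 4 rose with anisomycin, 29 fell and 2 rose with imiquimod, and between the treatments 6 were called, 1 higher and 5 lower. Of all genes, 22.9% were lower with anisomycin, 21.6% were lower with imiquimod and 18.7% were called between the treatments in that fit.

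Of the values of single named members, 10 changed sign, all of them uncalled differences between the treatments. Leaving out 1 array at a time moved this difference between -0.23 and 0.039 for Krt31, -0.022 and 0.10 for Krt74, -0.19 and 0.054 for Krt86, -0.77 and 0.073 for Krtap3-3, -0.78 and 0.011 for Krtap5-2, -0.055 and 0.11 for Krtap5-3, and -0.56 and 0.16 for Krtap8-1. In 5 of these 7 the change of sign came without the third imiquimod array. With array weights Krt74 was at -0.013 and Krt86 at 0.071. The other values kept their direction, with 73 calls lost and 41 gained over all alternatives.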

Other observations

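A further 15 probe sets name a KAP gene together with other symbols, and were left out of the tests above. Some of them name no member, such as those of Krtap2-4 and Krtap9-1. All 15 had a lower mean in both treatments than in vehicle, with differences of -2.06 to -0.22 for anisomycin and -1.54 to -0.49 for imiquimod. Of the 19938 genes, 10405 had a lower mean than vehicle with anisomycin and 11168 with imiquimod. Several of the 15 name the same genes, and some Krtap2-4 probe sets had equal values in all 9 arrays. The 15 are therefore not separate observations. The probe set shared by Krtap10-4, Krtap10-10 and other symbols, 10 in all, had 8.76, 8.33 and 8.15 with anisomycin, 8.48, 8.82 and 9.49 with imiquimod, and 10.0, 10.7 and 10.8 with vehicle. The probe set of Krtap9-1 and 3 other symbols had 7.17, 6.81 and 6.89 with anisomycin, 6.87, 7.32 and 8.04 with imiquimod, and 8.23, 8.52 and 9.00 with vehicle. In both probe sets the third imiquimod array was the highest of its group, and neither treatment overlapped vehicle.

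Genes other than the members were also high in the third imiquimod array. Among the 30 genes with the largest gap between that array and the mean of its 2 partners, 12 were members, and 13 others are known as interferon-stimulated genes or relatives of them: Ifi213, Cxcl10, Ifit1, Usp18, Ifit2, Rsad2, Ifit3, Irf7, Slfn4, Rtp4, Oasl2, Isg20 and Ms4a4c. They were picked out after their values were seen. Ifi213, an interferon-inducible gene, had 4.71, 4.56 and 4.58 with anisomycin, 4.69, 4.56 and 6.58 with imiquimod, and 3.90, 3.95 and 3.86 with vehicle. Cxcl10, a chemokine, had 8.03, 7.48 and 7.50 with anisomycin, 6.49, 6.84 and 8.22 with imiquimod, and 5.88, 6.14 and 6.09 with vehicle. For both of these genes the third imiquimod array lay farther from vehicle than its partners did. Krt24, Alox12e and Flg2 of the differentiated epidermis were in the same 30, and Krt24 had 6.19, 6.88 and 7.38 with anisomycin, 7.15, 8.23 and 9.10 with imiquimod, and 11.6, 10.6 and 11.6 with vehicle. None of these patterns was tested.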
